A study of Mus musculus with 5 samples.

Results

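Chemokine ligands are described here across the cells of injured mouse lung. The members were the genes of a list of 33 chemokine ligands, matched by symbol to the rows of the count matrices. Of these, 32 had a row among 28693 genes, and Cxcl11 had none. The list was drawn up by gene name, with earlier results of these data known. The study made 5 libraries, 1 for each condition and none replicated, from lung cells of mice carrying *Ms4a3-CreER* and *R26-tdT*. In these animals the monocyte progenitor gene *Ms4a3* drives an inducible Cre, and tamoxifen, a part of the study's scheme, switches on a red reporter in the cells that use it. The sham library came from PBS-treated lungs, and the others from lungs taken at day 3, day 7, day 14 and day 28 after bleomycin, a drug that injures the lung epithelium. The mice were adults of both sexes across the study as a whole, and the age, sex and number of animals behind each library were not given in the sources used here. The libraries carry the label of immune cells, although epithelial, endothelial and fibroblast cells with their defining markers were also present.

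Chemokines are small secreted proteins that bind G protein-coupled receptors on leukocytes and steer their movement. CC ligands such as Ccl2 act mainly on monocytes, T cells and dendritic cells, CXC ligands with an ELR motif such as Cxcl1 and Cxcl2 act on neutrophils through Cxcr2, and the interferon-induced ligands Cxcl9 and Cxcl10 act on T cells and NK cells through Cxcr3. In the lung they are known for drawing blood leukocytes into injured airspaces and for holding resident cells in their niches. Many of the genes lie side by side in the genome. In GRCm38 with the GENCODE annotation, Ccl2, Ccl7, Ccl11, Ccl12, Ccl8 and Ccl1 fill chromosome 11 from 82035571 to 82305690, and Ccl5, Ccl9, Ccl6, Ccl3 and Ccl4 follow at 83525778 to 83664683 of the same chromosome. On chromosome 5, Cxcl5, Ppbp, Pf4, Cxcl3, Cxcl15, Cxcl1 and Cxcl2 lie between 90759360 and 90905938, and Cxcl9 and Cxcl10 between 92321347 and 92348889. Ccl22, Cx3cl1 and Ccl17 share chromosome 8 from 94745590 to 94812036.

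After filters, 40950 of 52800 barcodes were analysed, with 7152 to 9237 cells and a median of 8934.5 to 13358.5 UMIs per cell in each library. The day 7 library held 10000 barcodes, none with fewer than 4624 UMIs, whereas barcodes of the other libraries reached down to 500 to 502. Pairs of libraries shared 22 to 41 cell barcodes. Cells were gated into types by marker genes that include no ligand and no chemokine receptor. The last 2 gates, a monocyte-C1q intermediate with markers of both types and a macrophage rich in *Mmp12* and *Spp1*, were added after the gated cells had been seen. Levels are CPM, the UMIs of a gene per 1000000 UMIs of all cells of a type in a library. Their exact 95% Poisson intervals cover counting error only, and no p-value was given between time points, because each has 1 library. Where no UMI was found, the CPM said to be allowed is that of 3 counts, the floor used for ratios. The upper end of the exact interval lies above it. B cells served as the background reference, on the assumption that they make little of most of these ligands. Their levels of Ccl2 were 36.6, 87.8, 170, 6.72 and 3.08 CPM from sham to day 28, and those of Cxcl2 28.2, 141, 802, 163 and 45.7 CPM. Levels of Ccl6 in B cells ran from 83.5 to 1589 CPM. The B cell gate held the 7 classical monocyte markers at a summed 489 to 1278 CPM, with 2, 1, 0, 5 and 2 of them at 0 from sham to day 28. It held the 9 neutrophil markers at 102 to 2000 CPM, with at most 1 of them at 0. How much of these sums came from single markers was not given. Free RNA was not measured on its own. The parts of free RNA, doublets and own expression in the B cell levels were not tested. A level at or below that of B cells in the same library was read as background.

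Cell types differed widely in the number of ligands they held. In C1q macrophages, the interstitial macrophages that express complement C1q, 19 of the 30 ligands tested were higher than in the mean of the other types, against 13.1% of all 13780 genes. In cDC2, dendritic cells that present antigen to CD4 T cells, 16 were higher, against 9.69% of genes. Classical monocytes and the intermediates held 13 each, against 9.24% and 6.45%. In cDC1, which cross-present antigen to CD8 T cells, 12 were higher, against 10% of genes. No ligand was higher in B cells, against 10.1% of genes. The call was an adjusted p-value under 0.05 and a log2 difference of at least 1 in an edgeR quasi-likelihood test with Benjamini–Hochberg adjustment over all genes, on UMIs summed per type and library in 24 types and 105 sums. The libraries stood as replicates, although each was a different time point. Fitted differences of ligands at or near 0 in most types depend on the prior count and are not bounds.

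Among the remaining myeloid types, 9 ligands were higher in *Mmp12-Spp1* macrophages, 9 in mature DCs and 9 in neutrophils, against 12.7%, 15.6% and 18.5% of genes. Alveolar macrophages held 8, against 15.2%. Of the structural cells, fibroblasts held 8, against 19.1% of genes, endothelial cells 6, against 17%, and the airway, AT1 and AT2 epithelial cells 3, 5 and 5, against 22.5%, 18.1% and 12.3%. Among lymphoid types, ILC2 held 6, against 3.82% of genes, and NK cells 5, against 8.44%. CD4 T cells and the T cells given no finer name held 4 each, against 10.1% and 11.1%, and CD8 and gamma delta T cells 3 each, against 12.5% and 10.3%. Nonclassical monocytes held 3, against 8.88%, pDCs 1, against 10.3%, and regulatory T cells 1, against 8.93%. The share of ligands was furthest above that of all genes in C1q macrophages, cDC2, the intermediates, classical monocytes and cDC1. It was near or below that of all genes in B cells, airway and AT1 epithelial cells, pDCs, nonclassical monocytes and CD8, gamma delta and regulatory T cells. In endothelial cells, AT2 cells, CD4 T cells and the T cells given no finer name it was only slightly above that of all genes.

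Of the 30 ligands tested, 29 were higher in at least 1 type and 28 in the type where their mean level was highest. The exceptions were Ccl25, which was called in none, and Ppbp. Ccl28 and Cxcl5 did not pass the filter on low counts. A ligand was called in 1 to 9 types, with 165 such pairs in all. The leading type was picked by level and then tested on the same sums, so the count of 28 is no separate support. How many of all genes were called in at least 1 type was not counted. In single types, the share of all genes called higher ran from 3.82% in ILC2 to 22.5% in airway epithelial cells. Ccl11 was called in 1 type and Cxcl12 in 2, whereas Ccl3, Cxcl9 and Cxcl16 were called in 9 each. The level of 26 ligands reached 100 CPM in at least 1 type and library, and their values are given below in the type with the highest mean.

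**Figure D1:**
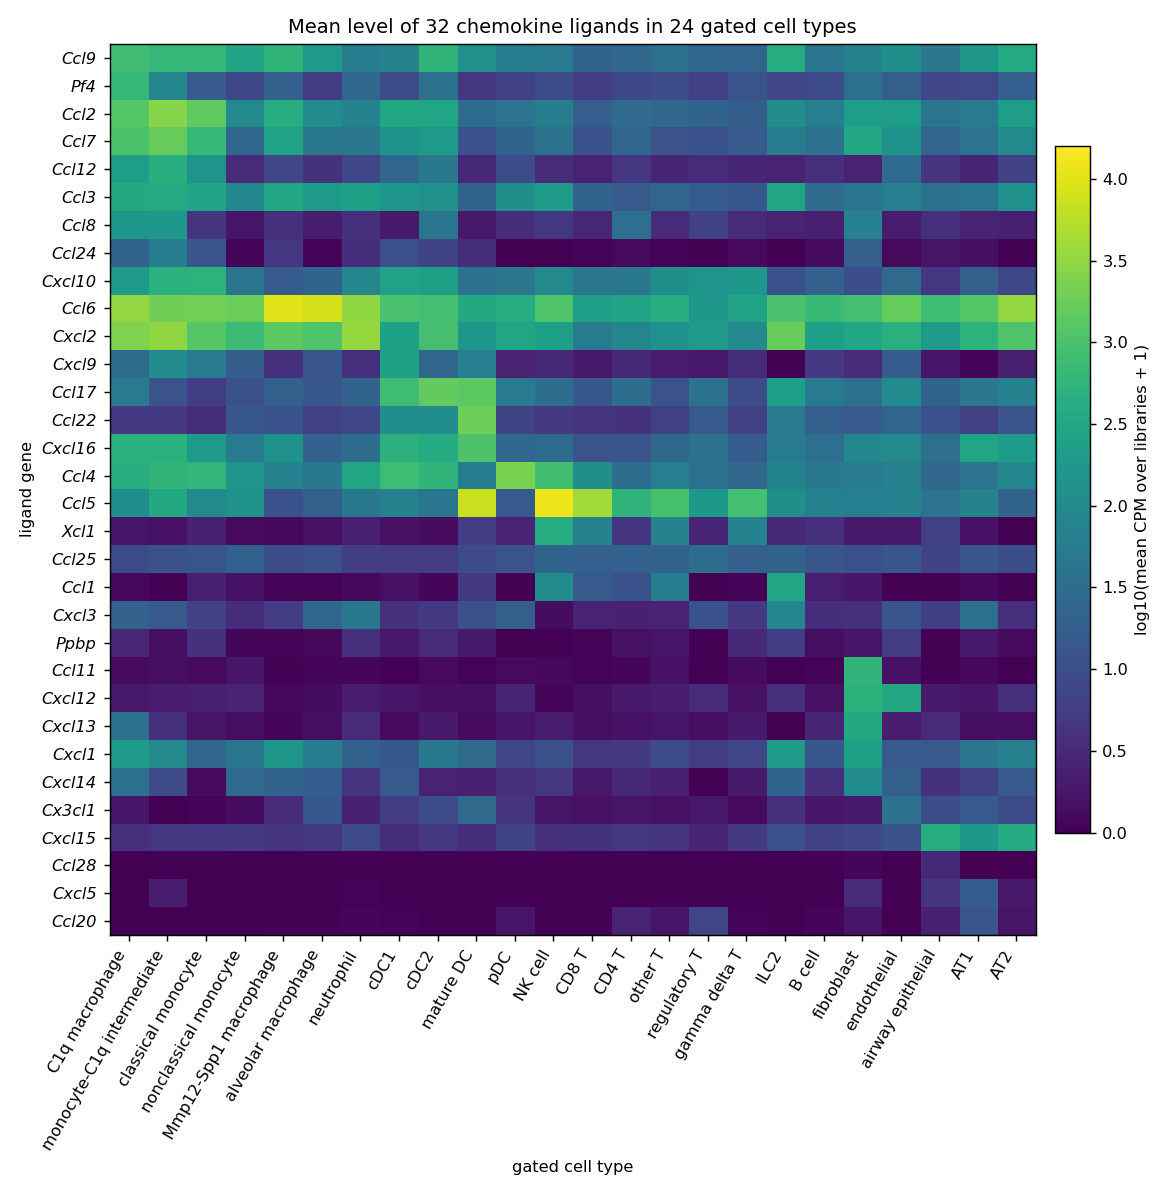
Mean level of the 32 ligands with a row (rows) in 24 gated cell types (columns), drawn as log10 of the mean CPM over libraries with at least 20 cells, plus 1. Rows are ordered by the type with the highest mean, so the block of macrophages and monocytes at the upper left and the separate block of fibroblast ligands can be read off, and B cells show levels above 0 for Ccl6 and Cxcl2.

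Ccl2, Ccl7, Ccl12 and Ccl8, which act on Ccr2 and related receptors of monocytes, were highest in the monocyte and C1q macrophage lineage. Their mean levels were highest in the monocyte-C1q intermediates. That gate reached 20 cells only at day 3 (150 cells) and day 7 (28 cells). Its mean therefore omits sham and the late libraries, which the mean of C1q macrophages includes. At day 3, C1q macrophages lay above the intermediates in Ccl7, Ccl12 and Ccl8, and at day 7 below them. Ccl2, the main ligand of Ccr2, was at 3262 and 2286 CPM there at day 3 and day 7. It was higher in intermediates than in the mean of the other types by 3.75 ± 0.39 on the log2 scale (adjusted p = 4.4e-12, edgeR). Here and below, the value after ± is the log2 difference divided by the square root of its F statistic. That value stands in for an SE, was not fitted as one and does not give the spread over libraries. In classical monocytes Ccl2 was at 714 CPM in sham and 3179, 1579 and 502 CPM from day 3 to day 14, with too few cells at day 28. In C1q macrophages it was at 1698, 2685, 1455, 214 and 73.0 CPM from sham to day 28. The day 3 library thus held the highest Ccl2 level in each of these types, and in C1q macrophages the days 14 and 28 were far below sham, at a log2 ratio of -4.54 for day 28 (95% interval -4.64 to -4.44). The sham level of C1q macrophages comes from 50 cells.

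Ccl7 and Ccl12 followed a similar order. Ccl7, a ligand of Ccr1, Ccr2 and Ccr3, was at 1664 and 1648 CPM in the intermediates at day 3 and day 7 (log2 difference 3.75 ± 0.43, adjusted p = 1.5e-10, edgeR). The C1q macrophages held 1716, 2080, 1184, 116 and 28.1 CPM. Ccl12, another Ccr2 ligand of the mouse, was at 609 and 262 CPM in the intermediates (4.83 ± 0.38, adjusted p = 5.8e-17, edgeR). In classical monocytes Ccl12 was at 10.0 CPM in sham, 481 at day 3 and 107 at day 7, and at day 14 no UMI was found, which allows up to 10.2 CPM. The same gene was in C1q macrophages at 193, 697, 214, 23.2 and 13.3 CPM. Ccl12 was therefore higher at day 3 than at any other time in both types. The C1q macrophage gate held the 7 classical monocyte markers at a summed 3305 CPM at day 3 against 681 in sham and 120 to 256 later, with no marker at 0 in any library, and the part of these markers in the day 3 levels was not tested.

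Ccl8, which acts on monocytes and on Ccr8-bearing T cells, did not share the day 3 peak. It was at 57.4 and 288 CPM in the intermediates at day 3 and day 7 (4.60 ± 0.46, adjusted p = 7.3e-13, edgeR), where 1 cell held 80.4% and 82.8% of its UMIs. In C1q macrophages it was at 366, 141, 254, 43.4 and 18.8 CPM, highest in sham. The fitted difference of Ccl8 was largest in C1q macrophages, at 5.996 ± 0.29. There, 314 of 1662 cells held a Ccl8 UMI at day 7 and 13 of 50 in sham. In B cells Ccl8 stayed between 0 and 3.54 CPM.

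Fibroblasts held Ccl7 and Ccl2 at day 3, but Ccl12 at 5.78 CPM, from 3 UMIs, and Ccl8 at 84.8 CPM against 45.9 in sham, with overlapping intervals (61.6 to 114 and 25.7 to 75.7). Ccl7 in fibroblasts was at 73.5 CPM in sham and 1238, 140, 65.6 and 49.1 CPM from day 3 to day 28. Ccl2 was at 12.2 CPM in sham and 794 at day 3, although 1 of 47 cells held 63.4% of the day 3 UMIs. Ccl7 UMIs were found in 28 of these 47 cells. The 6 C1q macrophage markers summed to 77.1 CPM in fibroblasts at day 3 and 12.2 in sham, below their 1542 CPM at day 28.

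Thinned to 2000 UMIs per cell, 65.3% of classical monocytes held a Ccl2 UMI at day 3 (95% interval 62.0 to 68.5, 7 shallower cells left out) and 28.2% in sham (20.3 to 37.3, 4 left out). The unthinned shares were 84.4% and 47.1%, at median depths of 13182 and 9422 UMIs. In B cells the thinned Ccl2 shares were 10.0% at day 3 (5 left out) and 3.49% in sham (16 left out), the unthinned ones 28.2% and 7.47%, and the median depths 5725 and 4114.5 UMIs. The monocyte shares thus lay above the B cell shares in both libraries.

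**Figure D2:**
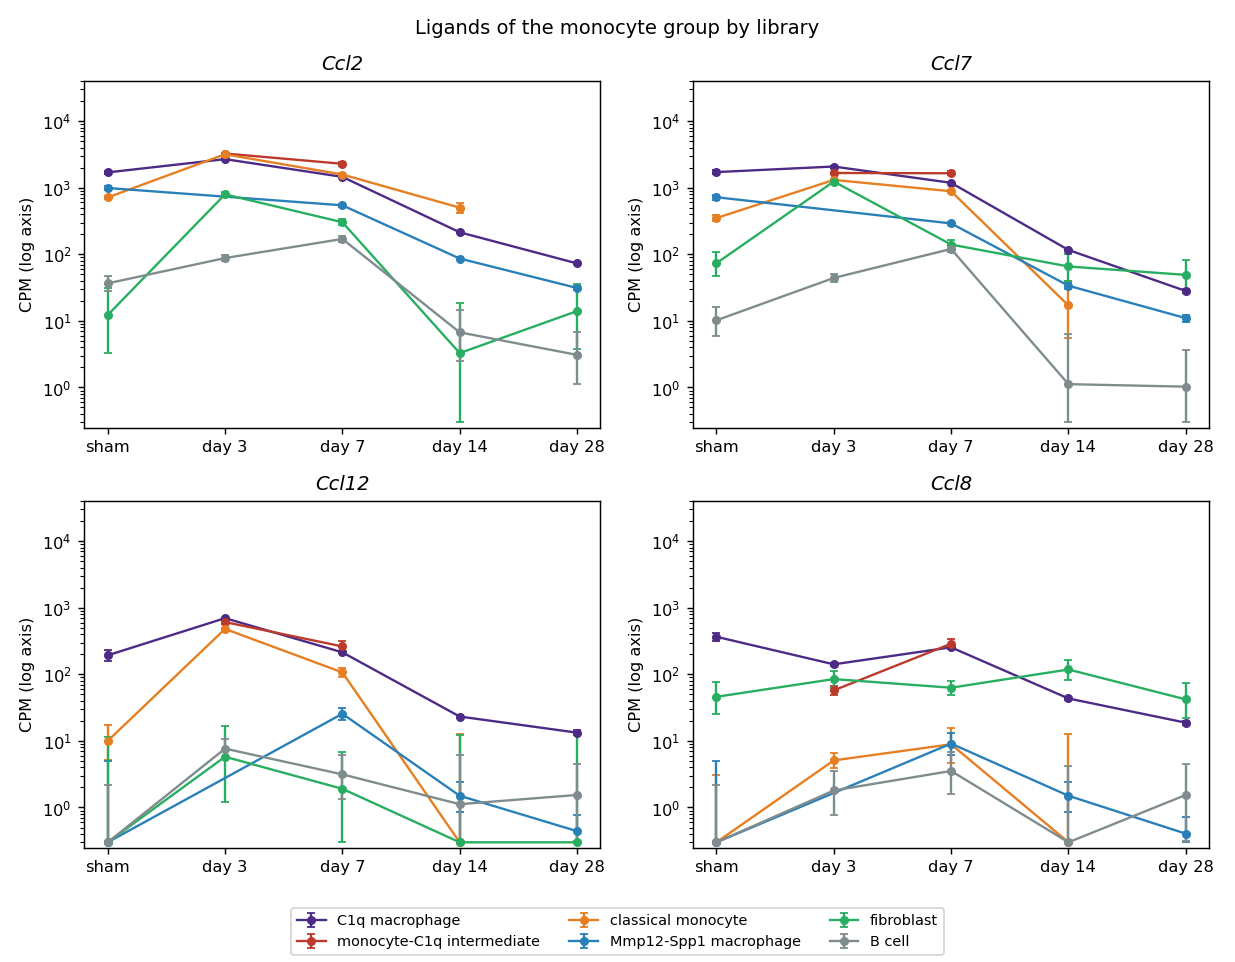
Level of Ccl2, Ccl7, Ccl12 and Ccl8 (CPM, log axis) in sham and at day 3, 7, 14 and 28 after bleomycin, with a line for each of 6 gated types. Bars are exact 95% Poisson intervals, types with under 20 cells in a library are not drawn, and a level of 0 is drawn near the foot of the axis. Ccl2 and Ccl12 peak at day 3 in C1q macrophages and classical monocytes, Ccl8 does not, and Ccl2 in B cells is highest at day 7, at 170 CPM.

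Ccl3 and Ccl4, inflammatory ligands that draw monocytes and T cells, were spread over many types. Among the types tested, Ccl3 had its highest mean in the intermediates, at 241 CPM at day 3 and 489 at day 7 (log2 difference 1.74 ± 0.50, adjusted p = 0.011, edgeR), a call that DESeq2 did not make. In C1q macrophages Ccl3 was at 634, 406, 374, 224 and 114 CPM, and in alveolar macrophages at 334, 216, 221, 224 and 66.7 CPM. The mean of the intermediates covers only day 3 and day 7, and C1q macrophages lay above them at day 3 and below them at day 7. The highest single level of Ccl3 in a tested type, 823 CPM in ILC2 at day 14, rested on 6 of 25 cells, of which 1 held 77.3% of the UMIs. Ccl3 was called in 9 types, with the largest fitted difference in neutrophils, at 2.60 ± 0.30.

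Among the types tested, Ccl4 was highest in pDCs, the interferon-producing plasmacytoid dendritic cells. Its level there was 3004 CPM in sham, 2817 at day 3, 2103 at day 7 and 1040 at day 14 (4.33 ± 0.33, adjusted p = 2.5e-20, edgeR). It was the only ligand called higher in pDCs. In NK cells Ccl4 was at 830, 737, 581, 1097 and 927 CPM, and in cDC1 at 315, 600, 1541, 1095 and 448 CPM. In B cells it reached 152 CPM at day 7.

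Ccl5, which recruits T cells and monocytes, marked NK cells, mature DCs and CD8 T cells. In NK cells it was at 15246 CPM in sham and 11855, 6010, 12763 and 15645 CPM from day 3 to day 28 (6.86 ± 0.32, adjusted p = 7.7e-34, edgeR). In mature DCs, the Ccr7-bearing cells that travel to lymph nodes, it was at 7440, 11210, 4414, 5678 and 8147 CPM. In CD8 T cells it was at 6455, 2132, 2974, 6941 and 2307 CPM, with the lowest levels at day 3, day 28 and day 7. These levels lay far above those of B cells, which ran from 12.0 to 156 CPM. Classical monocytes held 7.51 CPM of Ccl5 in sham and 360 at day 3.

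Ccl6 and Ccl9, rodent ligands of Ccr1, had their highest means in macrophages among the types tested, but were called higher in other myeloid types as well. Ccl6 reached the highest level of any ligand, 19010 CPM, in *Mmp12-Spp1* macrophages in sham, and was at 8234, 5781 and 7124 CPM there at day 7, day 14 and day 28 (3.18 ± 0.30, adjusted p = 1.6e-15, edgeR). The sham value came from 29 cells. In alveolar macrophages Ccl6 was at 8940, 6122, 9471, 7246 and 10014 CPM. These levels overlapped those of the *Mmp12-Spp1* macrophages, and the fitted difference was 3.52 ± 0.26. In C1q macrophages Ccl6 was at 4809 CPM in sham but 514 at day 3, then 2798, 3680 and 4831. Neutrophils, at 2034 to 3835 CPM, and classical monocytes, at 609 to 2872 CPM, were also called higher in Ccl6. AT2 cells, which were called higher in Ccl6, held the 11 alveolar macrophage markers at a summed 1372 to 2236 CPM, with up to 2 of them at 0, and their part in the Ccl6 level of AT2 cells was not tested.

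Among the types tested, Ccl9 had its highest mean in C1q macrophages, at 1496, 374, 575, 855 and 801 CPM from sham to day 28 (3.32 ± 0.30, adjusted p = 1.2e-16, edgeR). In classical monocytes Ccl9 was nearly level, at 663, 539, 657 and 662 CPM from sham to day 14. These monocytes were called higher in Ccl9, as were cDC2, at 322 to 851 CPM. In alveolar macrophages it was at 84.6, 285, 125, 137 and 256 CPM. Ccl9 was thus lower at day 3 than in sham in C1q macrophages and higher in alveolar macrophages.

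Cxcl9 and Cxcl10, which interferons induce and which draw Cxcr3-bearing T and NK cells, were highest at day 3. Cxcl9 led in cDC1, at 26.1 CPM in sham and 932, 49.9, 267 and 4.63 CPM from day 3 to day 28 (5.51 ± 0.35, adjusted p = 7.5e-25, edgeR). At day 3, 33 of 70 cDC1 held a Cxcl9 UMI, and at day 14, 15 of 135 cells did, with 47.4% of the UMIs in 1 cell. In mature DCs Cxcl9 had no UMI in sham, which allows up to 4.15 CPM, and was at 139, 44.9, 115 and 4.33 CPM from day 3 to day 28. In B cells it stayed at or below 11.5 CPM.

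Cxcl10 had its highest mean in classical monocytes, at 10.0 CPM in sham, 1787 at day 3 and 281 at day 7, with no UMI at day 14, which allows up to 10.2 CPM (2.28 ± 0.41, adjusted p = 5.8e-06, edgeR). The log2 ratio of day 3 to sham was 7.48 (95% interval 6.68 to 8.43). The sham interval rests on 12 UMIs. In cDC1 Cxcl10 was at 18.5, 1194, 31.7, 65.6 and 0 CPM, in cDC2 at 40.1, 1076, 48.5, 32.7 and 39.2 CPM, and in C1q macrophages at 190 CPM in sham, where 1 of 50 cells held 90.6% of the UMIs, and 595 at day 3. In NK cells it had no UMI in sham. Its 413 CPM at day 3 was 94.1-fold above the level of 3 counts, taken as the floor of the sham library, which is not a lower bound. B cells had no Cxcl10 UMI in sham and 69.8 CPM at day 3, so that part of this time course was also seen in the background reference. Levels at day 3 in classical monocytes, cDC1, cDC2, C1q macrophages and NK cells lay above that B cell level.

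Thinned to 2000 UMIs, 41.4% of cDC1 held a Cxcl10 UMI at day 3 (29.8 to 53.8, none left out), 31.4% of classical monocytes (28.3 to 34.6, 7 left out), 17.5% of NK cells (14.0 to 21.3, 9 left out) and 5.09% of B cells (3.55 to 7.04, 5 left out). Unthinned, these shares were 71.4%, 52.2%, 27.6% and 14.6%. The median depths at day 3 were 18562, 13182, 5951.5 and 5725 UMIs.

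The stretches before the starts of Cxcl9 and Cxcl10 are shown because both genes were highest at day 3 in several types and because they are neighbours. They cover 250 bases before the RefSeq start, on the strand of the gene, in GRCm38.p6. Cxcl9 lies at chr5:92328080-92328329 and Cxcl10 at chr5:92348890-92349139, both on the minus strand. Capitals mark the letters GAAANNGAA of an interferon-stimulated response element, and in Cxcl10 also GGANTTNCC or its reverse GGNAANTCC, the letters of an NF-kB site. The search covered both strands of windows from 250 bases before to 50 after the start, and the motifs did not overlap.
Cxcl9: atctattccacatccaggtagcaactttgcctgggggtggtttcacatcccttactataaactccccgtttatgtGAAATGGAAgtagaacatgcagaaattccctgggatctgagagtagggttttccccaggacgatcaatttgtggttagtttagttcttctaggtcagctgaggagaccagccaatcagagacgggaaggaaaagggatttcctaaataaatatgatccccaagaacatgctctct
Cxcl10: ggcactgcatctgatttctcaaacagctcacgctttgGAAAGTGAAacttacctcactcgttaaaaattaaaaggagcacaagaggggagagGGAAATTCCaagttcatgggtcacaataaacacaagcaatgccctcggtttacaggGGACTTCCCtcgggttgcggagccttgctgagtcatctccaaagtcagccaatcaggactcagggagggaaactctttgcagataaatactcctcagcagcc
The first motif starts 175 bases before the start of Cxcl9 and 213 before that of Cxcl10, and NF-kB letters start 158 and 102 bases before the start of Cxcl10. Among 32851 windows of all genes, 8.56% held the first motif and 3.945% the second. Of the 24 ligands with a window, 5 held the first motif, which besides these were Ccl1, Ccl3 and Cxcl14. A match gives letters only, not a bound site.

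**Figure D3:**
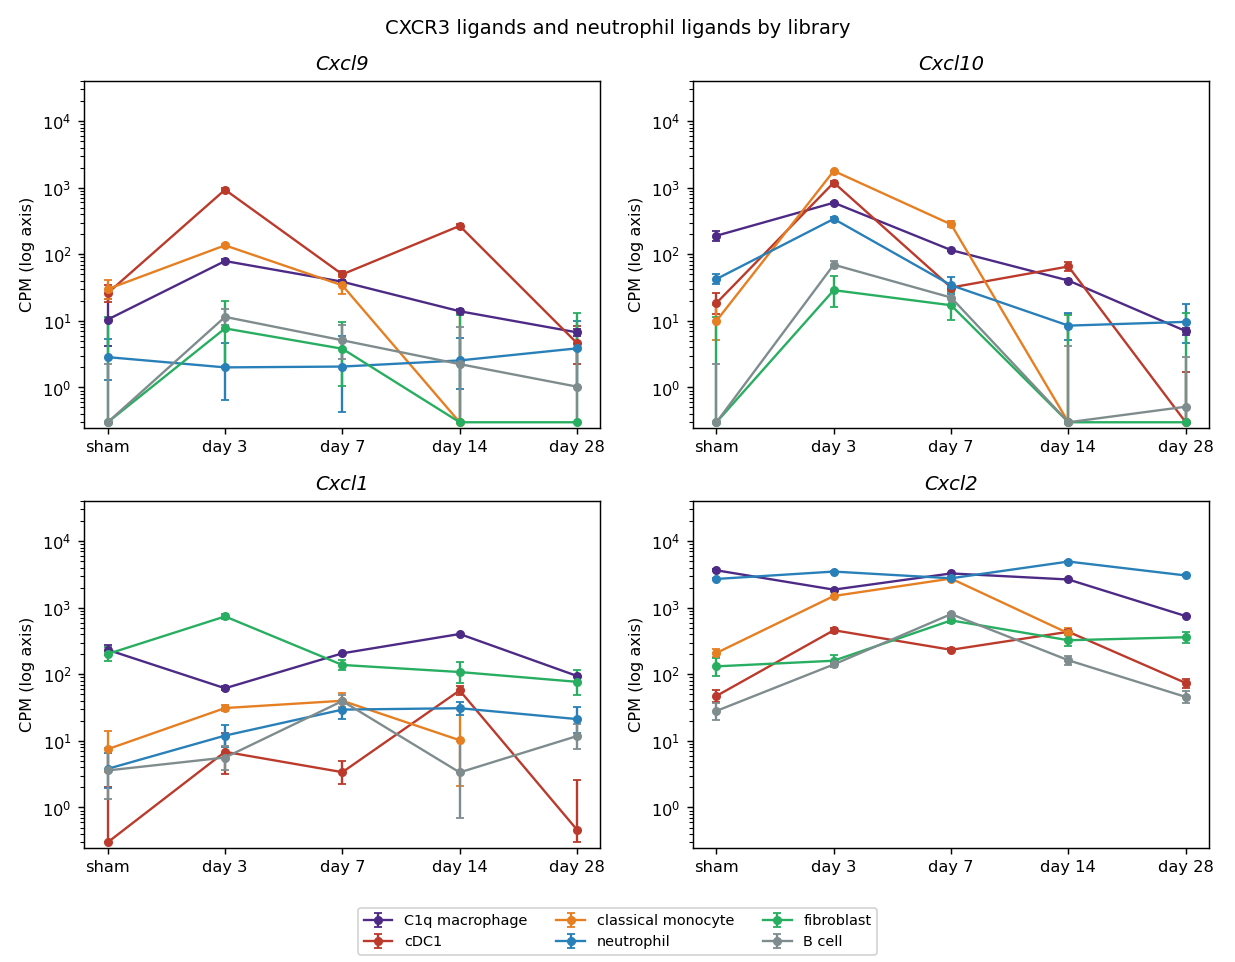
Level of Cxcl9, Cxcl10, Cxcl1 and Cxcl2 (CPM, log axis) in sham and at day 3, 7, 14 and 28 after bleomycin, with a line for each of 6 gated types and exact 95% Poisson intervals. A level of 0 is drawn near the foot of the axis. Cxcl9 in cDC1 and Cxcl10 in classical monocytes peak at day 3, at 932 and 1787 CPM, while Cxcl2 in neutrophils stays between 2705 and 4938 CPM.

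Cxcl2, a Cxcr2 ligand that neutrophils also make themselves, had its highest mean in neutrophils. Its level there was 2705, 3492, 2770, 4938 and 3052 CPM from sham to day 28 (4.33 ± 0.27, adjusted p = 4.5e-26, edgeR). C1q macrophages held 3648, 1870, 3274, 2655 and 749 CPM, and the intermediates 1930 at day 3 and 4393 at day 7, which overlapped the neutrophil levels. In alveolar macrophages Cxcl2 was at 657, 1743, 1804, 1070 and 206 CPM, highest at day 3 and day 7 and lowest at day 28.

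Cxcl1, which binds the same receptor, had its highest mean in fibroblasts, at 202, 740, 138, 108 and 77.1 CPM (3.75 ± 0.43, adjusted p = 1.6e-12, edgeR). The day 28 value came almost whole from 1 cell, which held 95.5% of the UMIs. In C1q macrophages Cxcl1 was at 233, 61.7, 207, 403 and 94.5 CPM, lowest at day 3, when that of fibroblasts was highest. Fibroblasts lay above C1q macrophages only at day 3, and below them in sham and at day 7, day 14 and day 28. In alveolar macrophages Cxcl1 was at 26.5, 120, 81.5, 56.0 and 5.68 CPM.

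Cxcl3, the third of these neighbours, had its highest mean in ILC2, at 61.5 CPM in sham, 31.4 at day 7 and 166 at day 14 (3.54 ± 0.73, adjusted p = 2.9e-04, edgeR), but 1 cell held all UMIs of the sham and day 14 values, and the call was lost without the day 14 library (log2 difference 2.42). In neutrophils Cxcl3 was at 46.6, 84.1, 22.7, 62.8 and 29.0 CPM, with a fitted difference of 4.13 ± 0.40.

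The stretches before Cxcl1, Cxcl2 and Cxcl3 are shown because these neighbours share a receptor and a motif. The mean level of Cxcl1 was highest in fibroblasts and that of Cxcl2 in neutrophils. All lie on the plus strand of GRCm38.p6, Cxcl1 at chr5:90890995-90891244, Cxcl2 at chr5:90903649-90903898 and Cxcl3 at chr5:90785851-90786100. Capitals mark the NF-kB letters.
Cxcl1: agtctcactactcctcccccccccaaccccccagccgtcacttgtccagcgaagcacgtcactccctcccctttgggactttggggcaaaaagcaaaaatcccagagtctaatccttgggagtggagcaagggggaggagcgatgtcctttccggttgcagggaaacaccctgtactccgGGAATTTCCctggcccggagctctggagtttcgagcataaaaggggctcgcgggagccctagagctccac
Cxcl2: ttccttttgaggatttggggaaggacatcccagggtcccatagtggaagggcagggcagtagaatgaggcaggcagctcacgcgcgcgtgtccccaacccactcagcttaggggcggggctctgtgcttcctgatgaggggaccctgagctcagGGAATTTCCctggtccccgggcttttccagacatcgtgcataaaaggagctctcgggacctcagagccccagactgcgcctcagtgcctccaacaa
Cxcl3: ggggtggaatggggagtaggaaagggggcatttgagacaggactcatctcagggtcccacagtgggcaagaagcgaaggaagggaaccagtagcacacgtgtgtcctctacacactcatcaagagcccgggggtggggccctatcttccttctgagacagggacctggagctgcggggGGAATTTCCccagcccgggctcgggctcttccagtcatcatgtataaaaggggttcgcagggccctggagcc
The same letters stand 70 bases before the start in Cxcl1, 96 in Cxcl2 and 72 in Cxcl3. With Cxcl10, these were the 4 ligands whose window held the NF-kB letters. The letters of a gamma-activated site, TTCNNNGAA, were in the windows of Ccl17 and Cxcl14 and in 8.298% of all windows.

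Cxcl15, the lung-specific ligand known as lungkine, was epithelial. In airway cells it was at 378 CPM in sham, 375 at day 7, 632 at day 14 and 220 at day 28 (6.74 ± 0.18, adjusted p = 9.4e-52, edgeR), and in AT2 cells at 247, 792 and 122 CPM at day 7, day 14 and day 28. The ranges of these types overlapped. Cxcl5 stayed below 100 CPM, and its highest value, 44.9 CPM in AT1 cells at day 7, came to 95.6% from 1 cell. Ppbp, a platelet ligand of Cxcr2, stayed at or below 12.3 CPM in types with at least 20 cells.

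Pf4, known as a platelet chemokine, was highest in C1q macrophages among the types tested. Its level there was 2085 CPM in sham and 256, 542, 134 and 106 CPM from day 3 to day 28 (5.78 ± 0.25, adjusted p = 4.7e-35, edgeR). In sham, 41 of 50 C1q macrophages held a Pf4 UMI. The intermediates held 103 and 66.1 CPM, and B cells 0.600 to 17.1 CPM.

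Ccl17 and Ccl22 are the ligands of Ccr4, the receptor of type 2 helper and regulatory T cells, and lie on chromosome 8. Ccl17 was highest in cDC2, at 598, 821, 2607, 2008 and 1635 CPM from sham to day 28 (6.19 ± 0.32, adjusted p = 1.8e-29, edgeR). At day 7, 623 of 792 cDC2 held a Ccl17 UMI. In mature DCs it was at 1390, 916, 2000, 1192 and 1505 CPM and in cDC1 at 591, 883, 691, 384 and 1377 CPM. The levels of cDC2 and mature DCs overlapped, and the fitted difference was larger in mature DCs, at 6.48 ± 0.32. B cells held 153 CPM of Ccl17 in sham and 81.0 at day 7.

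Ccl22 was concentrated in mature DCs. Its level there was at 2784, 1294, 1958, 1574 and 1849 CPM (8.25 ± 0.24, adjusted p = 5.5e-49, edgeR), whereas in cDC2 it ran from 20.8 to 246 CPM and in cDC1 from 69.0 to 131 CPM. The lowest Ccl22 level of mature DCs was at day 3, and it lay above every level of the other types. Thinned to 2000 UMIs, 34.5% of mature DCs held a Ccl22 UMI at day 3 (27.4 to 42.1, 4 left out) and 84.4% in sham (70.5 to 93.5, none left out), against 0.898% and 0.806% of B cells. The unthinned shares were 61.1% and 95.6% of mature DCs, at median depths of 12578 and 15724 UMIs, and 2.08% and 1.80% of B cells, at 5725 and 4114.5 UMIs.

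Cxcl16, a membrane-bound ligand of Cxcr6, was also highest in mature DCs, at 878, 1526, 861, 1085 and 918 CPM (4.68 ± 0.19, adjusted p = 4.9e-38, edgeR). In cDC1 it was at 318, 655, 498, 551 and 431 CPM, and in C1q macrophages at 310, 899, 392, 427 and 374 CPM. In each of these 3 types the day 3 library was the highest. Of the 9 types in which Cxcl16 was called higher, 2 were alveolar epithelial.

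Fibroblasts had the highest mean level of 5 ligands, Ccl11, Cxcl12, Cxcl13, Cxcl14 and Cxcl1. Ccl11, or eotaxin, which recruits eosinophils through Ccr3, was at 499 CPM in sham and 1272, 248, 299 and 456 CPM from day 3 to day 28 (11.55 ± 0.19, adjusted p = 2.3e-61, edgeR). The next type had a mean of 0.771 CPM. At day 3, 34 of 47 fibroblasts held a Ccl11 UMI.

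Cxcl12, the Cxcr4 ligand that retains leukocytes and progenitors, was at 530, 534, 394, 555 and 442 CPM in fibroblasts (8.77 ± 0.18, adjusted p = 2.1e-61, edgeR). In endothelial cells it was at 393, 181, 106, 563 and 339 CPM. The fibroblast levels varied little over the libraries, while those of endothelial cells were lowest at day 7 and reached the fibroblast range at day 14. Cxcl14, a ligand with no settled receptor, was at 184, 65.5, 96.3, 144 and 38.5 CPM in fibroblasts (5.12 ± 0.41, adjusted p = 2.6e-19, edgeR). In C1q macrophages it was at 20.9, 4.49, 16.1, 70.4 and 60.9 CPM, and at day 14, 681 of 1409 of these cells held a Cxcl14 UMI.

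Cxcl13, the Cxcr5 ligand that gathers B cells, had the least even spread over fibroblasts. It had no UMI in sham, which allows up to 9.19 CPM, and was at 222, 621, 19.7 and 936 CPM from day 3 to day 28 (8.37 ± 0.26, adjusted p = 4.9e-47, edgeR). At day 28, 1 of 48 fibroblasts held all of these UMIs, and at day 3 and day 7 a single cell held 65.2% and 68.9%. These levels therefore describe few cells. In C1q macrophages Cxcl13 was at 67.3, 70.6, 18.7, 5.10 and 24.8 CPM, and at day 3, 1 of 939 cells held 79.1% of its UMIs.

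Ccl24, or eotaxin-2, had its highest mean in the intermediates, at 13.7 and 106 CPM at day 3 and day 7 (6.80 ± 0.97, adjusted p = 1.4e-07, edgeR), where a single cell held 73.3% of the day 7 UMIs and DESeq2 made no call. In C1q macrophages it was at 79.3 CPM in sham and 1.96 to 9.44 CPM after bleomycin. Cx3cl1, or fractalkine, a membrane-bound ligand of Cx3cr1, stayed below 100 CPM in every type. It was highest in endothelial cells, at 20.1 to 57.4 CPM, followed by mature DCs at 21.6 to 30.6 CPM.

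Xcl1, the lymphotactin that draws Xcr1-bearing cDC1, had its highest level in NK cells. Its level there was 262, 775, 305, 345 and 270 CPM (8.03 ± 0.32, adjusted p = 6.6e-38, edgeR). It was highest at day 3, when 286 of 450 NK cells held an Xcl1 UMI. In CD8 T cells Xcl1 was at 7.05, 97.4, 139, 67.9 and 32.8 CPM, and in gamma delta T cells at 17.2, 249, 66.5, 6.94 and 2.79 CPM.

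Ccl1, a ligand of Ccr8, had its highest mean in ILC2, the innate cells of type 2 responses, at 639 CPM in sham, 62.8 at day 7 and 182 at day 14 (10.28 ± 0.85, adjusted p = 3.1e-16, edgeR). At day 14, 2 cells held the Ccl1 UMIs and 1 of them 97.1%. In NK cells Ccl1 reached 463 CPM at day 7, where 2 of 35 cells held the UMIs and 1 of them 96.3%. No Ccl1 UMI was found in NK cells in sham, which allows up to 4.39 CPM, or at day 28, which allows up to 11.7 CPM. The largest share of Ccl1 UMIs lay in ILC2 in sham (98.1%) and at day 3 (32.9%, from 15 cells). It lay in CD8 T cells at day 7 (28.7%). At day 14 (55.7%) and day 28 (93.75%) it lay in the T cells given no finer name. Both of these T cell types were also called higher in Ccl1.

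The 6 ligands under 100 CPM were Ccl20, Ccl25, Ccl28, Cxcl5, Cx3cl1 and Ppbp, with highest levels of 30.8, 65.5, 5.55, 44.9, 57.4 and 12.3 CPM. Ccl20, a Ccr6 ligand, was called higher in AT1 cells (5.54 ± 0.63, adjusted p = 2.4e-11, edgeR), where 1 cell held 98% of the day 14 UMIs. Ccl25, a Ccr9 ligand of thymus and gut, ran at 10.1 to 19.5 CPM in B cells of 4 libraries and at 6.35 to 13.6 CPM in alveolar macrophages.

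At day 3, ligands at least 2-fold above sham outnumbered those below it in most types. A ligand entered the count of a type when it reached 20 CPM in either library, whatever its level in B cells. In classical monocytes 10 of 14 ligands were higher by this measure, against 12.1% of genes, and Ccl6 was lower. In alveolar macrophages 10 of 14 were higher, against 3.82%, and none was lower. They included Cxcl10, at 6.12 CPM in sham and 82.6 at day 3, Cxcl9, at 2.15 and 30.7 CPM, and Cxcl16, at 4.55 and 38.9 CPM. The B cell levels at day 3 were close to these for Cxcl10, at 69.8 CPM, and for Cxcl16, at 37.6 CPM.

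In cDC1, 12 of 15 ligands were higher, against 15.2% of genes, and none was lower. In cDC2, 6 of 17 were higher, against 7.43%. In neutrophils 5 of 10 were higher, against 5.6%, namely Ccl2, Ccl3, Ccl5, Ccl7 and Cxcl10. All of these but Ccl3 were also at least 2-fold higher in B cells at day 3. The count in neutrophils was 11 among cells with at least 5000 UMIs and 8 with doublets kept. In NK cells 6 of 12 were higher, against 5.41%, namely Ccl1, Ccl2, Ccl7, Cxcl2, Cxcl10 and Xcl1. All of these but Ccl1 and Xcl1 were also at least 2-fold higher in B cells at day 3. In fibroblasts 8 of 16 were higher, against 10.8%, and 4 lower, against 17.8%.

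C1q macrophages, mature DCs and endothelial cells differed from this. In C1q macrophages 5 of 20 ligands were higher at day 3, against 9.53% of genes, and 9 lower, against 10.4%. The higher ones were Ccl5, Ccl12, Cxcl9, Cxcl10 and Cxcl16. In mature DCs 4 of 15 were higher, against 9.69%, and 5 lower, against 7.51%. In endothelial cells, with 26 cells in sham, 2 of 12 were higher, against 14.7%, and 3 lower, against 20.5%, namely Ccl5, Ccl6 and Cxcl12, but with doublets kept 8 were higher and 1 lower.

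B cells, the background reference, were counted in the same way. There, 7 of 11 ligands were at least 2-fold higher at day 3, against 3.7% of genes, and 4 lower, against 2.44%, or 4 higher among cells with at least 5000 UMIs. The higher ones were Ccl2, Ccl4, Ccl5, Ccl7, Cxcl2, Cxcl10 and Cxcl16. Their levels at day 3 were 36.7 to 141 CPM in B cells, and the same 7 ligands were at 360 to 3179 CPM in classical monocytes.

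At day 28 most ligands of C1q and alveolar macrophages lay below sham, although Ccl6 did not in either type. In C1q macrophages 12 of 18 ligands were at least 2-fold lower at day 14, against 9.78% of genes, and 14 of 18 at day 28, against 13.8%. Cxcl14 alone was higher in both. In alveolar macrophages 6 of 9 ligands were lower at day 28, against 3.37% of genes, namely Ccl2, Ccl3, Ccl7, Cxcl1, Cxcl2 and Cxcl3, and Ccl9 was higher. Ccl2 in alveolar macrophages was at 162 CPM in sham and 21.9 at day 28, a log2 ratio of -2.89 (95% interval -2.99 to -2.79). Cxcl3 went from 24.5 to 0.410 CPM. These sums rest on 4847 cells in sham and 1918 at day 28. The sham sum of C1q macrophages rests on 50 cells, 1 of which held all 80 Ccl17 UMIs, and the part of its small number in the late differences was not tested.

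Shares of UMIs depend on how many cells of a type a library held as well as on their level. In sham, where 4847 of 8397 cells were alveolar macrophages, these cells held 72.7% of Ccl2 UMIs (95% interval 72.0 to 73.3), 91.3% of Ccl6 UMIs and 76.9% of Cxcl2 UMIs. They also held 84.8% of the UMIs of Ccl25, which was called higher in no type. The share of all UMIs held by these cells was not set beside these values, so they do not show an excess. At day 3 classical monocytes held 32.5% of Ccl2 UMIs (32.2 to 32.8) and C1q macrophages 31.7% (31.4 to 31.9), and at day 7 the C1q macrophages held 60.2% (59.8 to 60.5). The largest share of Ccl2 thus lay in alveolar macrophages in sham, was nearly even between monocytes and C1q macrophages at day 3 and lay in C1q macrophages at day 7, although the level was higher in monocytes and C1q macrophages than in alveolar macrophages in all 3 libraries.

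Other ligands kept their source. Fibroblasts held 87.5% to 97.0% of Ccl11 UMIs in every library, mature DCs 68.2% to 83.8% of Ccl22 UMIs, and C1q macrophages 62.9% to 88.7% of Pf4 UMIs and 66.3% to 88.5% of Ccl8 UMIs. The largest share of Ccl5 lay in NK cells in sham (39.9%) and at day 3 (37.1%). It lay in mature DCs at day 7 (60.6%), CD8 T cells at day 14 (35.7%) and mature DCs at day 28 (67.7%). The gates held 450 NK cells and 175 mature DCs at day 3, and 35 and 511 at day 7. The day 7 library had no barcode under 4624 UMIs, and NK cells had a median of 4925 UMIs over all libraries. The part of that limit in the Ccl5 shares was not tested. Of 148 pairs of a ligand and a library with at least 20 UMIs, 80 had over 50% of the UMIs in 1 gated type. The same share over all genes was not counted.

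**Figure D4:**
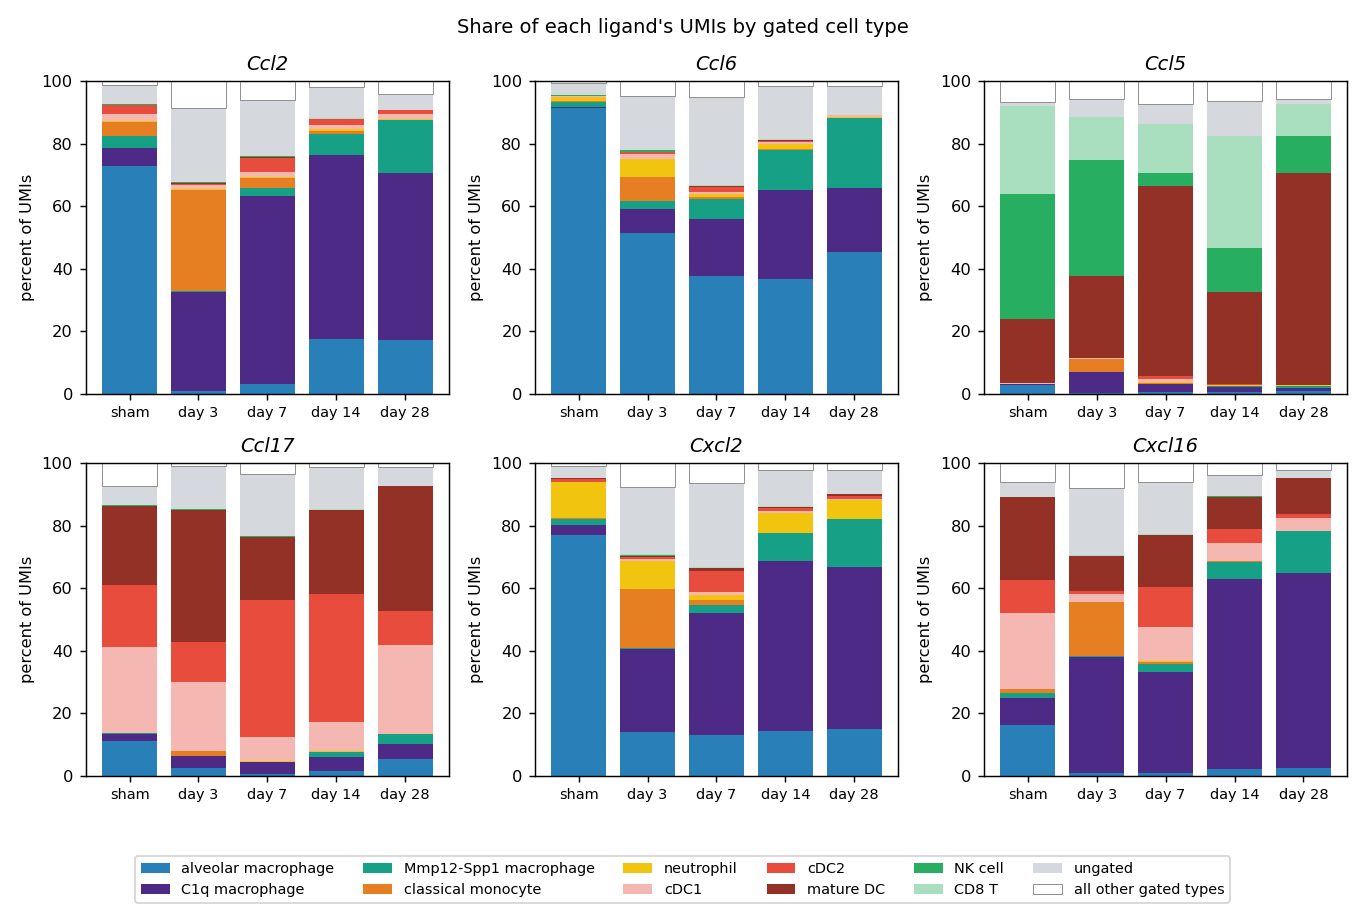
Share of the UMIs of 6 ligands (percent, bars summing to 100) by gated cell type in sham and at day 3, 7, 14 and 28 after bleomycin. Alveolar macrophages hold most Ccl2, Ccl6 and Cxcl2 UMIs in sham, and C1q macrophages hold the largest Ccl2 share from day 7 on, at 60.2% at day 7. The white part is the sum of all other gated types.

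Within alveolar macrophages, cells were cut at the median, over all libraries, of a score of *Gpnmb*, *Mmp12*, *Mfge8*, *Spp1* and *Fn1*, genes known from scar-associated macrophages, and compared within libraries. Of 21 ligands tested, 4 were higher in the high subset and 0 lower, against 4.22% of all 10707 genes called in either direction. Cxcl16 was higher by 1.00 ± 0.11 on the log2 scale (adjusted p = 5.9e-05, edgeR), with a mean of 23.0 CPM against 12.2. Its level in B cells was 15.6 to 65.2 CPM, and only at day 3 did the high subset, at 47.6 CPM, lie above that of B cells in the same library, at 37.6 CPM. Ccl9 was higher by 0.87 ± 0.12 (adjusted p = 4.5e-04, edgeR), with 207 against 115 CPM, and Ccl6 by 0.24 ± 0.04 (adjusted p = 0.0020, edgeR), with 8742 against 7653 CPM. Ccl17 was higher by 0.83 ± 0.23 (adjusted p = 0.048, edgeR), but its levels of 14.8 and 6.90 CPM lay within those of B cells. Each of the 4 was higher in 5 of 5 libraries, although the low subset held 29 cells at day 14 and 96 at day 28. The intervals of the subsets overlapped at day 14 for Cxcl16 (6.50 to 33.3 and 20.8 to 24.6 CPM) and Ccl9 (77.7 to 142 and 133 to 142 CPM) and at day 7 and day 14 for Ccl17. Without the library as a block 0 of them passed, and without the day 7 library 8 ligands did. The call of Ccl17 was lost when any of the other libraries was left out, at log2 differences of 0.59 to 0.90. Ccl2 was lower in 4 of 5 libraries without passing (-0.30 ± 0.13, adjusted p = 0.26, edgeR). The 11 alveolar macrophage markers summed to 5892 to 8530 CPM in the high subset and 6379 to 8708 in the low one, and the 6 C1q macrophage markers to 20.8 to 254 and 14.1 to 196 CPM.

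**Figure D5:**
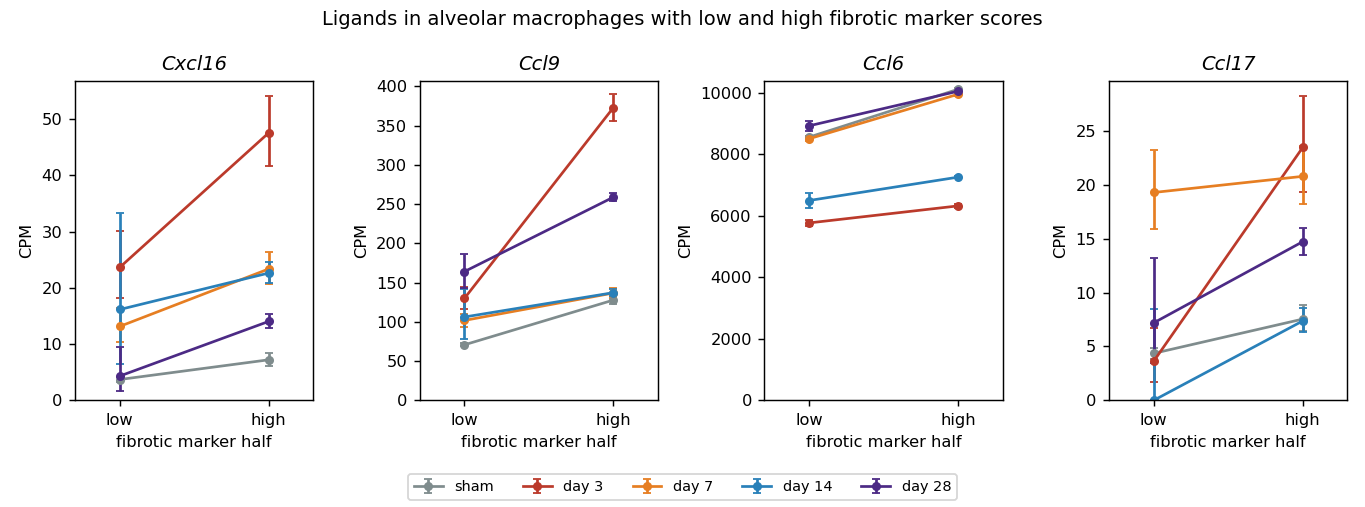
Level of Cxcl16, Ccl9, Ccl6 and Ccl17 (CPM, linear axis from 0) in alveolar macrophages with low and high fibrotic marker scores, with a line for each of the 5 libraries and exact 95% Poisson intervals. All 20 lines run upwards from the low to the high subset, with the largest fitted difference in Cxcl16 and the smallest in Ccl6.

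The receptors stand on the other side of the pathway. Of 23 listed chemokine receptors, 22 were tested and all 22 were higher in at least 1 type, whereas Ackr4 did not pass the filter. The share of all genes called in at least 1 type was not counted beside this. Among the types that led for most ligands, the receptor with the largest difference in fibroblasts was Ackr3, a scavenger of Cxcl12 (8.72 ± 0.27, adjusted p = 3.3e-45, edgeR), at 154 to 413 CPM. In C1q macrophages it was Cx3cr1 (3.27 ± 0.25, adjusted p = 2.1e-20), at 52.1 to 162 CPM. In mature DCs it was Ccr7, which guides cells to lymph nodes (7.77 ± 0.26, adjusted p = 4.0e-44), at 2283 to 3390 CPM.

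In NK cells it was Cxcr3 (2.50 ± 0.33, adjusted p = 1.3e-09, edgeR), at 54.1, 49.3, 28.7, 7.63 and 31.3 CPM from sham to day 28. In ILC2 it was Ccr8 (7.76 ± 0.72, adjusted p = 4.5e-12, edgeR), at 61.5 CPM in sham and 8.97 at day 7, with no UMI at day 14. The largest difference of Ccr2 was in classical monocytes, of Xcr1 in cDC1, of Cxcr1, Cxcr2 and Ccr1 in neutrophils, of Ccr4 in regulatory T cells, of Cxcr5 in B cells and of Ccr9 in pDCs.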

How the data were processed

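Lung cells of 5 conditions were measured by droplet 3' scRNA-seq, 1 library each. Per the labels and the study's methods, the authors aligned reads with Cell Ranger 6.0.0 to mm10, and the deposited values are whole UMI counts, given for each gene of a barcode. The day 7 file held exactly 10000 barcodes and none under 4624 UMIs, unlike the others, and how its barcodes were chosen was not given in the sources used here. A barcode was kept when its mitochondrial share was under 15%, its genes numbered 300 to 8000 and its UMIs 800 to 60000 (44772 of 52800 passed), and 3822 with the highest Scrublet scores (scanpy 1.11.5; 0.8% for each 1000 barcodes of a library) were removed as doublets, in place of the authors' doublet tool. Library totals ran from 89769386 to 167506186 UMIs.

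Cells were gated by the mean standardized expression of marker lists (scaled to 10000 UMIs, standardized values capped at 5), with a score of at least 0.5, a lead of 0.25 over the next list and 3 markers detected. No ligand or receptor was a marker. The remaining 5674 cells (13.9%) stayed ungated, and a type entered the tests only with 20 cells in at least 2 libraries. Counts were summed per type and library and tested with edgeR 4.0.16 in R 4.3.3 (quasi-likelihood, TMM, library as a block), each type against the equally weighted mean of the others, with Benjamini–Hochberg adjustment over all genes and calls at an adjusted p of 0.05 and a log2 difference of 1. Cutting alveolar macrophages in 2 subsets used the same test without the limit on size. The pipeline was tested on simulated data. Time points were compared by levels alone, at 2-fold and 20 CPM, with a floor of 3 counts for a level of 0.

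All 33 listed ligands are accounted for, and values by library are given for those that reach 100 CPM, in the type with the highest mean. Receptors are named as the 1 with the largest difference in each type that led most often, with ties kept, and a receptor result is not reported here. The members and lists were chosen with earlier results of these data known. Alternatives were DESeq2 1.42.0, other filters, gates and normalization, and leaving out each library. Promoter windows came from RefSeq (GRCm38.p6), which held 24 of the members, and gene positions from GENCODE (GRCm38).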

Additional observations from a re-analysis of the deposited data

Results flagged for a closer look

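Day 3 and sham were compared in each gated cell type, and 7 ligands with at least 50 UMIs over both libraries had a level at least 2-fold higher at day 3 in 1 type and at least 2-fold lower in another. Each time point has 1 library, so none of these differences was tested. The difference between types is that of their log2 ratios of day 3 to sham. It was 7.80 for Ccl5, which went from 7.51 to 360 CPM in classical monocytes and from 1316 to 282 CPM in CD4 T cells. It was 6.66 for Ccl9, from 6.53 to 165 CPM in cDC1 and from 1496 to 374 CPM in C1q macrophages, and 5.43 for Ccl6, from 516 to 1036 CPM in cDC1 and from 3290 to 153 CPM in endothelial cells. The 11 alveolar macrophage markers summed to 3335 CPM in the 26 endothelial cells of sham and 1188 CPM at day 3, and their part in the Ccl6 level was not tested. Ccl3 differed by 4.11, with 61.0 and 316 CPM in cDC1 and 34.6 and 10.4 CPM in mature DCs, where 1 cell held 56.0% of the sham UMIs. The other 3 separated alveolar from C1q macrophages. Cxcl14 differed by 4.28 (6.14 and 25.5 against 20.9 and 4.49 CPM), Cxcl1 by 4.10 (26.5 and 120 against 233 and 61.7 CPM) and Cxcl3 by 2.68 (24.5 and 69.5 against 49.4 and 21.8 CPM). Of the 50 sham C1q macrophages, 1 held 78.8% of the Cxcl3 UMIs. The direction of Ccl3 in mature DCs turned with doublets kept.

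Outside the tested types, 2 gates with under 20 cells in every library held ligands at 100 CPM or more and above the level of any tested type, over all libraries summed. The gate of basophils or mast cells, with 26 cells, held Ccl4 at 18770 CPM (exact 95% Poisson interval 18106 to 19460), against 2403 CPM in pDCs, Ccl3 at 11370 CPM (10854 to 11909), against 300.4 CPM in classical monocytes, and Ccl9 at 1435 CPM (1255 to 1634), against 717 CPM in C1q macrophages. The gate of platelets or megakaryocytes, with 44 cells, held Pf4 at 565 CPM (515 to 619), against 250.5 CPM in C1q macrophages, and Ppbp at 263.8 CPM (230.1 to 301.2), against 4.08 CPM in ILC2. The latter gate held the largest share of Ppbp UMIs at day 3, day 7, day 14 and day 28, at 47.0%, 33.7%, 53.0% and 35.2%.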

How the results depend on the processing

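The number of ligands called higher in at least 1 type, 29, ranged from 27 to 31 over the alternatives, and the 165 pairs of a ligand and a type from 135 to 169. Without the 2 gates added after seeing the cells, an alternative added after seeing the data, 28 ligands and 148 pairs were called. Calls of single ligands in their leading type were lost for Ccl3 and Ccl24 in intermediates with DESeq2, and for Cxcl3 in ILC2 with the lead between gate scores doubled or without the day 14 library. In alveolar macrophage subsets the 4 calls became 0 without the library as a block and 9 without the filter on low counts, and 3 to 8 when a library was left out. The libraries themselves pair the subsets, and with 1 library per time point no paired analysis was possible because the conditions share no animal or replicate.

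Counts at day 3 that moved by over 1.5 times were those of neutrophils, with 8 ligands higher with doublets kept and 11 at a minimum of 5000 UMIs in place of 5, mature DCs, with 3 lower with doublets kept in place of 5, and fibroblasts, with 2 lower in place of 4, both with doublets kept and with the lead doubled. In B cells 4 ligands were higher at a minimum of 5000 UMIs in place of 7, and 1 was lower with the lead doubled and 2 by the mean of single cells in place of 4. In endothelial cells 8 ligands were higher with doublets kept and 5 by the mean of single cells in place of 2, and 1 was lower under both in place of 3. No count at a minimum of 5000 UMIs was made there, for want of cells. Of the log2 ratios to sham under these alternatives, 704 stayed within their counting interval, 230 moved and 21 reversed. With the lead doubled, ratios at day 3 became 0.066 for Ccl3 and 2.97 for Ccl17 in B cells, 1.83 for Ccl17 in C1q macrophages, -0.65 for Ccl8 in cDC2 and 1.16 for Ccl3 in fibroblasts. At day 14 they became 0.99 for Ccl17 and 1.61 for Cxcl10 in C1q macrophages and -1.37 for Cxcl3 in ILC2, and at day 28 1.11 for Ccl17 in C1q macrophages. With at least 5000 UMIs, Cxcl16 in B cells became -0.0724 at day 3, Ccl17 in C1q macrophages 1.83, 1.23 and 1.25 at day 3, day 14 and day 28, and Cxcl10 there 1.11 at day 14. By the mean of single cells, Cxcl3 in ILC2 became -1.08 at day 14 and Cxcl1 in cDC2 0.54, Ccl5 in endothelial cells 2.42 and Cxcl12 there 0.27 at day 3. With doublets kept, Cxcl14 in fibroblasts became 0.52, Ccl5 in endothelial cells 1.26 and Ccl3 in mature DCs 0.78 at day 3. In C1q macrophages of sham 1 cell held all Ccl17 UMIs and 90.6% of those of Cxcl10. The cause was otherwise not tested. Levels of ligands under 20 CPM, and of types with few cells, are limited by depth and by single cells.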
